A study of Mus musculus with 7 samples.

Results

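Messenger RNA of proteasome subunits and of the CCT chaperonin was compared between splenic B cells of Eu-miR-155 transgenic (TG) mice and of wild-type (WT) FVB mice. The list holds 44 genes: 7 alpha subunits and 10 beta subunits of the 20S core, 3 of them immunoproteasome subunits, 3 subunits of the 11S activators, 17 subunits of the 19S cap and 7 of CCT. Each gene was represented by the brightest probe set that the platform annotation assigns to that gene alone, by its mean over the 7 arrays. This gave 43 genes of the 9517 that were tested. Psme2 was left out, because its probe set also names Psme2b. All 43 stood at mean levels of 9.27 to 13.51 on the authors' log2 scale, in which values at or under 4 are taken as background, and all 43 passed the filter on low values.

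The WT group was 4 arrays of B cells from mice of the FVB strain, and the TG group 3 arrays of B cells from FVB mice carrying miR-155 under the Eu element, the immunoglobulin heavy chain enhancer, which drives a transgene in the B lineage. Cells of both groups came from the spleen through a magnetic B-cell isolation kit. The labels give no age, founder line, sex or count of pooled animals, so p-values measure the spread between these samples. The 8 tested B cell markers were above background on every array, with list means of 13.51 to 13.63 in WT and 12.85 to 13.35 in TG. All 8 estimates were below 0 (median -0.30), against 4690 of all 9517 genes tested. In 4 of them every TG array was below every WT array, against 10.4% of all genes and 14.7% of those with a mean above 9. Fcer2a, which encodes CD23, passed as lower (-0.82, limma adjusted p = 0.0451). Of all genes 2.56% passed as lower, and of those with a mean above 9 3.59% did. The microRNA itself pairs with messenger RNAs mainly through its seed, bases 2 to 8, which are in capitals here as the RefSeq entry (GRCm38.p6, chromosome 16) gives it.

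mmu-miR-155-5p: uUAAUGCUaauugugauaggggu

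The proteasome degrades proteins tagged with ubiquitin. Its barrel, the 20S core, is built of outer alpha rings, which gate the entrance, and inner beta rings, which hold the proteolytic sites. The 19S cap binds, unfolds and deubiquitinates substrates. In lymphocytes and after interferon, the catalytic subunits encoded by Psmb5, Psmb6 and Psmb7 are replaced by those of Psmb8, Psmb9 and Psmb10, which favour peptides for class I antigen presentation. CCT, also called TRiC, is a stacked pair of rings of related subunits that folds newly made actin and tubulin.

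Several measures that are not of these genes varied on the same arrays, some with genotype and some within a group. Their part in the results below was not tested. Proliferation genes averaged 7.35 to 8.29 on the WT arrays and 9.27, 9.59 and 10.53 on TG replicates 1, 2 and 3. The granulocyte markers averaged 2.77 to 3.69 in WT and 7.96 to 9.35 in TG, with 6 of 9 not above background on any WT array and 0 of 9 so in TG. The erythroid list averaged 3.5 to 3.52 in WT and 4.38 to 6.21 in TG, with 6 of 7 and 3 of 7 markers not above background on any array of the group. Natural killer markers averaged 3.32 to 3.44 and 6.10 to 7.60, dendritic cell markers 3.83 to 4.26 and 5.16 to 7.18, macrophage markers 3.96 to 5.45 and 5.47 to 7.26, plasma cell markers 8.24 to 8.58 and 8.95 to 10.24, and platelet markers 6.48 to 8.89 and 10.27 to 11.24. T cell markers averaged 2.75 to 2.81 in WT, 3.04 and 3.21 on TG replicates 1 and 2, and 8.06 on TG replicate 3, where 6 of the 8 were above background on that array alone. The female transcript Xist was at 2.22 and 2.81 on WT replicates 3 and 4 and at 13.61 to 13.93 on the other 5 arrays, so those 2 WT arrays read as male and the rest as female. In bulk RNA, a different share of cells and a different amount of RNA per cell cannot be told apart.

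Of the 43 genes, 8 passed limma's test at an adjusted p under 0.05, all 8 as higher, which is 18.6% of the genes against 8.11% of all genes tested and 6.65% of the 4738 genes whose mean was above 9. They were Psma7, Psmb2 and Psmb5 of the core, Psmd6 and Psmd14 of the cap, and Tcp1, Cct5 and Cct7 of CCT. None passed as lower, where 2.56% of all genes and 3.59% of those with a mean above 9 did. At an unadjusted p under 0.05 there were 23 genes higher (53.5%), against 1902 of all 9517 genes (20%) and 18.3% of those with a mean above 9. In the other direction there were 0, against 1043 of all 9517 genes (11%) and 15.4% of those with a mean above 9. The estimate was above 0 for 42 of the 43 genes, against 50.7% of all genes and 46.5% of those with a mean above 9. For 26 genes (60.5%) every TG array stood above every WT array, against 19.5% of all genes and 18.3% of those with a mean above 9; for 0 genes every TG array stood below, against 10.4% of all genes and 14.7% of those with a mean above 9. The median difference was 0.18 on the log2 scale, with a range from -0.03 to 0.44, and the median over all genes tested was 0.00. These are counts over genes measured on the same 7 arrays, and no test was made of the list as a whole.

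**Figure D1:**
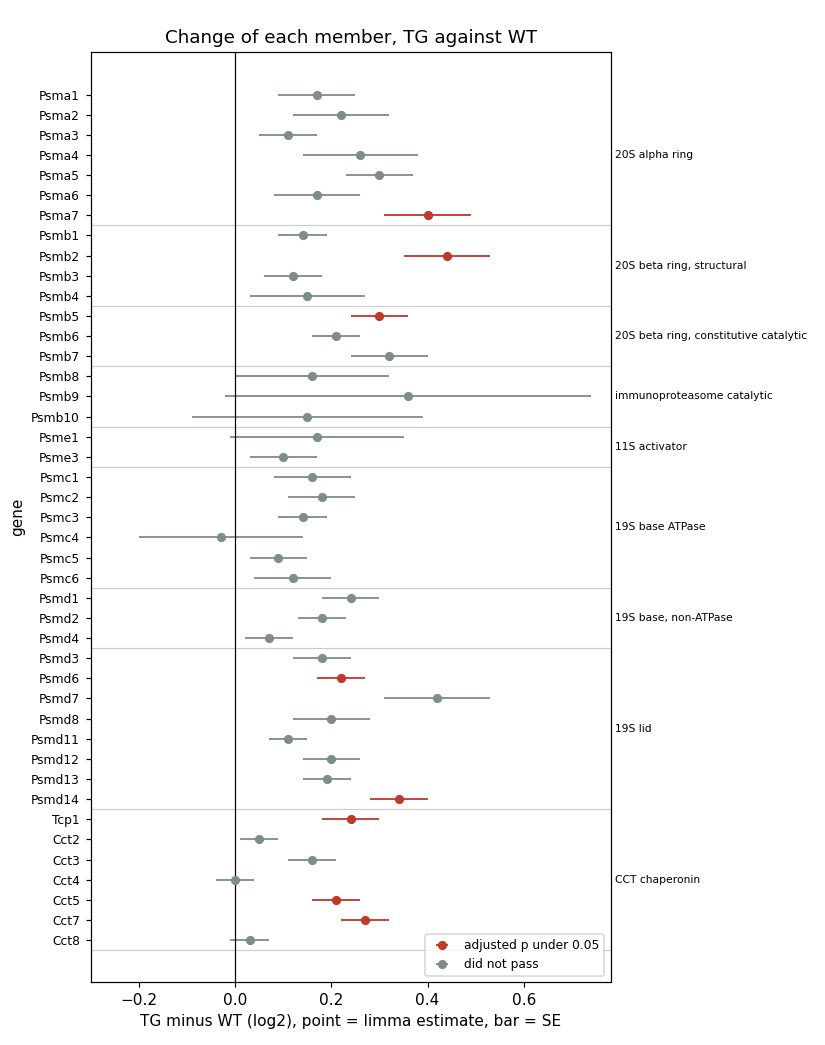
Difference between TG and WT arrays (horizontal axis, log2) for the 43 genes (vertical axis), grouped by their place in the complex; points are limma estimates, bars are standard errors, and red marks the 8 genes with an adjusted p under 0.05. All red points lie between 0.21 and 0.44, and the widest bars belong to Psmb9, Psmb10, Psme1, Psmc4 and Psmb8.

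The calls rest on few arrays. None of the 8 genes passed when WT replicate 2, 3 or 4 or TG replicate 2 was left out, 2 (Psmd14 and Cct7) passed without WT replicate 1, and 1 (Psmd14) passed without TG replicate 3. Without TG replicate 1 there were 8 calls, 5 of them among these 8, with Tcp1, Cct5 and Cct7 lost. The share of all genes called higher fell from 8.11% to 1.13%, 2.39% and 2.48% without WT replicate 2, 3 and 4 and to 0.841% without TG replicate 2, while the median difference of the 43 genes was 0.19, 0.19, 0.20 and 0.19. Without TG replicate 3, where 1 of the 43 genes passed, the share stayed at 6.81% and the median fell to 0.13. Without WT replicate 1 they were 3.49% and 0.18, and without TG replicate 1 they were 8.44% and 0.22. With Xist as a covariate none passed, against 1.44% of all genes, yet the median difference was 0.21. Without both TG replicate 3 and WT replicate 4 none passed either, while 3.6% of all genes were called higher. The median was then 0.15, with 39 of 43 estimates above 0.

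The flanks upstream of these genes were read from the RefSeq promoter table (GRCm38.p6), which held 36 of the 43, over 250 bases before and 50 after each start. Among 5 motifs searched on both strands, the ETS-type motif CCGGAAG was the one whose share differed most from that of other promoters: it was in 14 of the 36 genes (38.9%) against 9.93% of 27025 genes in the table. The CCAAT box was in 41.7% against 41.1%, the NRF1 and NRF2 element TGACNNNGC in 16.7% against 14.0%, the E-box CACGTG in 8.33% against 8.09%, and the interferon-stimulated response element core in 8.33% against 3.99%. The comparison share covers all genes in the promoter table, whether or not they were tested here, and was not matched for expression level. Of the 8 genes that passed, only Psmd6 and Tcp1 were found with CCGGAAG. A match is a string of letters and not a shown binding site. The windows below, 30 bases each, 5′ to 3′ on the gene's strand with the motif in capitals (in the reverse complement where it lies on the opposite strand), show the ETS motif in cap subunits (Psmd6, Psmd2, Psmc2) and in Cct8, the NRF element in Psmb5 and Tcp1, and the CCAAT box in Psma7, Psmd14 and Cct7, so that the flanks of 6 of the 8 genes that passed can be seen.

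Psmd6 (chr14:14120972-14121001, minus strand): cagagacgcgaCCGGAAGtcagactggcgg
Psmd2 (chr16:20651615-20651644, plus strand): tccgcagggcgCTTCCGGtctggaggacaa
Psmc2 (chr5:21786712-21786741, plus strand): gcgcggagctaCTTCCGGtggggaagagaa
Cct8 (chr16:87495888-87495917, minus strand): gggcggggcgaCCGGAAGtagggggacgcg
Psmb5 (chr14:54618023-54618052, minus strand): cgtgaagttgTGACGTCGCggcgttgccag
Tcp1 (chr17:12916290-12916319, plus strand): tgtctctagtTGACCCAGCgtcccgcagcc
Psma7 (chr2:180042643-180042672, minus strand): gcctgcctgtcgCCAATgcgcgctcgagtc
Psmd14 (chr2:61711523-61711552, plus strand): cagtgaagcaggATTGGcactgtgaaaaaa
Cct7 (chr6:85451398-85451427, plus strand): aaccgggcgctgATTGGccaaaactcttaa

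The alpha ring had 1 of 7 genes passing as higher (14.3%, against 8.11% of all genes). All 7 estimates were above 0, with a median difference of 0.22. Psma7, whose product is an outer-ring subunit, was at 11.19, 11.32, 11.08 and 11.13 on WT replicates 1 to 4 and at 11.43, 11.55 and 11.74 on TG replicates 1 to 3. The lowest TG value was 0.11 above the highest WT value. The difference was 0.40 ± 0.09 (SE; limma adjusted p = 0.0462), a rise of 31.6%, and a second, dimmer probe set of the gene gave 0.45 (adjusted p = 0.0458). Psma3 had the highest p of the ring, with WT values of 12.68, 12.63, 12.69 and 12.68 and TG values of 12.70, 12.72 and 12.91. Its groups were separated by 0.01 alone, and the difference of 0.11 ± 0.06 did not pass (adjusted p = 0.271). Psma5 came near the threshold (0.30, adjusted p = 0.055), while a dimmer probe set of it passed (0.42, adjusted p = 0.0481). Psma1, Psma2, Psma4 and Psma6 differed by 0.17 to 0.26 and did not pass.

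Of the 4 beta subunits without a proteolytic site, Psmb2 passed (25.0%, against 8.11% of all genes) and Psmb1, Psmb3 and Psmb4 did not. Every TG array stood above every WT array in all but Psmb4 (75.0%, against 19.5% of all genes). Psmb1 and Psmb3 differed by 0.14 and 0.12 (limma adjusted p = 0.102 and 0.189). Psmb2 had the largest difference of all 43 genes, 0.44 ± 0.09 (SE; limma adjusted p = 0.0348). Its values were 9.94, 10.10, 9.77 and 9.90 in WT and 10.29, 10.33 and 10.48 in TG, with a gap of 0.20 between the groups. Psmb4 overlapped: its brightest probe set read 12.24, 12.61, 12.46 and 12.75 in WT and 12.61, 12.68 and 12.70 in TG (0.15 ± 0.12, adjusted p = 0.413). That probe set ends in _x_at, the manufacturer's mark for probes that may bind other transcripts. The Psmb4 probe set without this mark read 12.25 to 12.43 in WT and 12.52 to 12.60 in TG and passed (adjusted p = 0.0467), so the call for Psmb4 depends on the probe set.

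All 3 constitutive catalytic genes were higher on every TG array than on any WT array (against 19.5% of all genes), and Psmb5 passed. Psmb5 encodes the subunit with chymotrypsin-like activity, the main target of bortezomib. It was at 10.97, 11.13, 11.16 and 11.08 in WT and 11.34, 11.37 and 11.44 in TG, a difference of 0.30 ± 0.06 (SE; limma adjusted p = 0.0319). Psmb6, of the caspase-like site, was at 10.88, 10.95, 10.92 and 11.06 in WT and 11.14, 11.16 and 11.18 in TG. The SD over the 3 TG arrays was 0.02, and the difference was 0.21 ± 0.05 (adjusted p = 0.0581). Psmb7, of the trypsin-like site, was at 11.15, 11.30, 11.22 and 11.23 in WT and 11.36, 11.58 and 11.69 in TG (0.32 ± 0.08, adjusted p = 0.0633).

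The interferon-inducible subunits varied between arrays in another way. Psmb8 read 13.67, 13.62, 13.18 and 13.29 in WT and 13.47, 13.46 and 13.87 in TG. Psmb9 spread most, with 12.57, 12.42, 11.39 and 11.69 in WT and 12.01, 12.08 and 13.06 in TG. Psmb10 was at 11.16, 11.46, 10.67 and 10.89 in WT and 10.95, 10.99 and 11.65 in TG. For each of them WT replicates 1 and 2 were above WT replicates 3 and 4, TG replicates 1 and 2 lay between these pairs, and TG replicate 3 was the highest array. None passed: the differences were 0.16 ± 0.16, 0.36 ± 0.38 and 0.15 ± 0.24 (SE; limma adjusted p = 0.52, 0.539 and 0.694). Against WT replicates 1 and 2 alone they were -0.05, -0.11 and -0.11, and with Xist as a covariate -0.05, -0.13 and -0.12. Their sign thus depends on the WT arrays used.

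**Figure D2:**
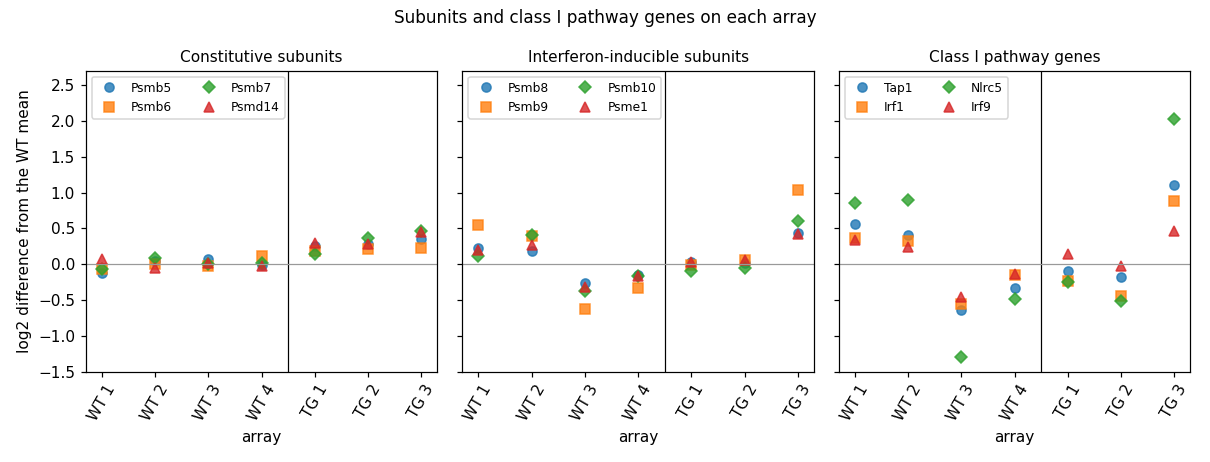
Log2 difference from the WT mean (vertical axis) on each of the 7 arrays (horizontal axis) for 4 constitutive subunits, 4 interferon-inducible subunits and the class I pathway genes Tap1, Irf1, Nlrc5 and Irf9; each point is 1 array. The constitutive subunits lie above 0 on all 3 TG arrays, while the other panels show high WT replicates 1 and 2, low WT replicates 3 and 4 and the highest points on TG replicate 3.

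The activators showed the same division. Psme1 encodes the alpha subunit of PA28, an interferon-inducible ring that opens the 20S core. It was at 12.84, 12.91, 12.32 and 12.47 in WT and 12.67, 12.70 and 13.06 in TG (0.17 ± 0.18 SE, limma adjusted p = 0.52). The shared probe set of Psme2 and Psme2b, which is outside the list's rule, read 12.37, 12.47, 11.99 and 12.16 in WT and 12.25, 12.20 and 12.66 in TG. Psme3 encodes the nuclear PA28 gamma, which interferon does not induce. It was flat by comparison, at 9.17, 9.28, 9.28 and 9.17 in WT and 9.31, 9.45 and 9.22 in TG (0.10 ± 0.07, adjusted p = 0.366).

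The range over the 4 WT arrays was 0.49 to 1.18 for Psmb8, Psmb9, Psmb10 and Psme1, and its median over the other 39 genes was 0.15. The highest range among those 39 was 0.75, for Psmc4. All 4 of these genes were higher on WT replicates 1 and 2 than on 3 and 4, a division seen in 3 of the other 39, with 5 of them the reverse way. The same arrays were divided by Xist, and the part of sex in it was not tested. The medians of the 4 genes, as differences from the WT mean, were 0.22, 0.34, -0.35 and -0.16 on WT replicates 1 to 4 and 0.01, 0.04 and 0.51 on TG replicates 1 to 3. For the other 39 genes they were -0.03 to 0.01 in WT and 0.11, 0.17 and 0.26 in TG.

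Whether immunoproteasome subunits changed differently from the subunits they replace was tested within arrays, as the log2 difference of the paired probe sets, whose absolute level has no meaning. Psmb8 minus Psmb5 was 2.36 ± 0.30 (SD, n = 4) in WT and 2.22 ± 0.19 (SD, n = 3) in TG. The contrast of -0.14 had an exact permutation p of 0.543. For Psmb9 minus Psmb6 the contrast was 0.16 (exact permutation p = 0.743), and for Psmb10 minus Psmb7 it was -0.17 (exact permutation p = 0.486). All 3 tests were two-sided over 35 splits of the arrays, with 0.0286 the smallest p possible, and after Benjamini-Hochberg adjustment over the 3 pairs each stood at 0.743. Unequal change was not detectable over all 7 arrays, where the WT spread of the Psmb9 pair was 0.60 (SD). Against WT replicates 1 and 2 alone the contrasts were -0.38, -0.36 and -0.43, all negative, and they were not tested. Leaving out single arrays gave -0.25 to -0.03 for Psmb8 minus Psmb5 and -0.32 to -0.05 for Psmb10 minus Psmb7. The sign for Psmb9 minus Psmb6 turned to -0.17 without TG replicate 3, to -0.04 without WT replicate 3 and to -0.32 without both TG replicate 3 and WT replicate 4.

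The ring of ATPases at the base of the cap, which pulls substrates into the core, had 0 of 6 genes passing, with 2 at an unadjusted p under 0.05, both higher (33.3%, against 20% of all genes). Psmc2 came closest, at 11.94, 12.07, 12.06 and 12.15 in WT and 12.15, 12.23 and 12.32 in TG. Its lowest TG value was 0.01 above its highest WT value, and the difference was 0.18 ± 0.07 (SE; limma adjusted p = 0.124). Psmc4 was the 1 gene of the 43 with a negative estimate. It read 10.24, 10.86, 10.68 and 10.99 in WT and 10.66, 10.73 and 10.59 in TG, so its WT arrays spanned the TG arrays on both sides (-0.03 ± 0.17, adjusted p = 0.935). A second Psmc4 probe set gave 0.13 (adjusted p = 0.266). Psmc1, Psmc3, Psmc5 and Psmc6 differed by 0.09 to 0.16 and did not pass.

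Among the other base subunits none of 3 passed. At an unadjusted p under 0.05 there were 2 higher and 0 lower, where all genes gave 20% and 11%. Psmd1, a scaffold of the base, was at 10.32, 10.34, 10.34 and 10.41 in WT and 10.48, 10.59 and 10.71 in TG. The groups did not overlap, and the difference was 0.24 ± 0.06 (SE; limma adjusted p = 0.0642). Psmd2, which docks ubiquitin shuttles, differed by 0.18 (adjusted p = 0.0677). Psmd4, a ubiquitin receptor, read 11.34, 11.19, 11.26 and 11.25 in WT and 11.36, 11.35 and 11.30 in TG, with overlapping groups (0.07 ± 0.05, adjusted p = 0.335).

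In the lid, every one of the 8 genes, by its brightest probe set, stood higher on all TG arrays than on all WT arrays (against 19.5% of all genes). All 8 had an unadjusted p under 0.05 (against 20% of all genes), and 2 passed after adjustment (25.0%, against 8.11%). Psmd14 encodes the metalloprotease that cuts ubiquitin chains off substrates as they enter. It was at 11.13, 11.01, 11.08 and 11.04 in WT and 11.36, 11.34 and 11.51 in TG, with a gap of 0.21 between the groups. Its difference of 0.34 ± 0.06 had the lowest adjusted p of the 43 genes (0.0248 by limma), and it ran from 0.28 to 0.37 over the alternatives, with adjusted p from 0.00428 to 0.171.

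Psmd6, a structural lid subunit, read 11.47, 11.48, 11.61 and 11.49 in WT and 11.66, 11.75 and 11.79 in TG. WT replicate 3 stood above the other WT arrays and 0.06 below the lowest TG array, and the difference was 0.22 ± 0.05 (SE, limma adjusted p = 0.0493). A second, dimmer probe set of Psmd6 gave 0.19 with overlapping groups and did not pass (adjusted p = 0.277). Psmd7, the partner of Psmd14, had the larger difference of 0.42 ± 0.11 but did not pass (adjusted p = 0.066). Its values were 8.99 to 9.19 in WT and 9.38, 9.47 and 9.80 in TG, so TG replicate 3 stood well above the other TG arrays. Psmd11, with the highest p of the lid, was at 11.23, 11.25, 11.25 and 11.15 in WT and 11.29, 11.35 and 11.35 in TG (0.11 ± 0.04, adjusted p = 0.159). That probe set ends in _s_at, a mark for probes shared between transcripts. The brightest unmarked one gave 0.05 with overlapping groups (adjusted p = 0.429), so the separation of Psmd11 depends on the probe set. Psmd3, Psmd8, Psmd12 and Psmd13 differed by 0.18 to 0.20, with adjusted p from 0.0664 to 0.143.

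CCT had 3 of 7 genes passing (42.9%, against 8.11% of all genes called higher), with differences from 0.00 to 0.27 and a median of 0.16. Cct7 read 11.65, 11.52, 11.57 and 11.48 in WT and 11.83, 11.80 and 11.85 in TG, a gap of 0.15 between the groups and a difference of 0.27 ± 0.05 (SE, limma adjusted p = 0.0296). A second, dimmer probe set of Cct7 gave 0.24 without overlap of the groups and did not pass (adjusted p = 0.0677). Tcp1, which encodes the alpha subunit, was at 11.97, 11.92, 12.02 and 11.85 in WT and 12.13, 12.16 and 12.25 in TG (0.24 ± 0.06, adjusted p = 0.0461). Cct5 was at 12.82, 12.70, 12.83 and 12.76 in WT and 12.95, 13.07 and 12.96 in TG (0.21 ± 0.05, adjusted p = 0.0467). Over the 7 CCT genes, every TG array stood above every WT array in 4, these 3 and Cct3 (57.1%, against 19.5% of all genes).

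The other 4 CCT genes did not pass. Cct4 was at 13.08, 13.00, 13.10 and 13.05 in WT and 13.07, 13.07 and 13.05 in TG, with every TG value inside the WT range (0.00 ± 0.04 SE, limma adjusted p = 0.953). Cct8 and Cct2 differed by 0.03 ± 0.04 and 0.05 ± 0.04 (adjusted p = 0.58 and 0.414). Cct3 differed by 0.16 ± 0.05 (adjusted p = 0.0894). The brightest probe sets of Cct2, Cct3 and Cct4 all end in _x_at, and the brightest unmarked ones gave 0.12, 0.10 and 0.06 (adjusted p = 0.108, 0.351 and 0.345). The unmarked Cct2 probe set read 13.06 to 13.17 in WT and 13.23 to 13.26 in TG, without overlap, so the Cct2 value depends on the probe set. Unlike the core and the lid, where TG replicate 3 was the highest array, CCT had medians of 0.14, 0.20 and 0.14 above the WT mean on TG replicates 1 to 3. Over the 39 genes that are not interferon-inducible, TG replicate 3 held the highest value of 28, TG replicate 2 of 7 and TG replicate 1 of 1, and WT replicate 3 or 4 held it for 3 genes.

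**Figure D3:**
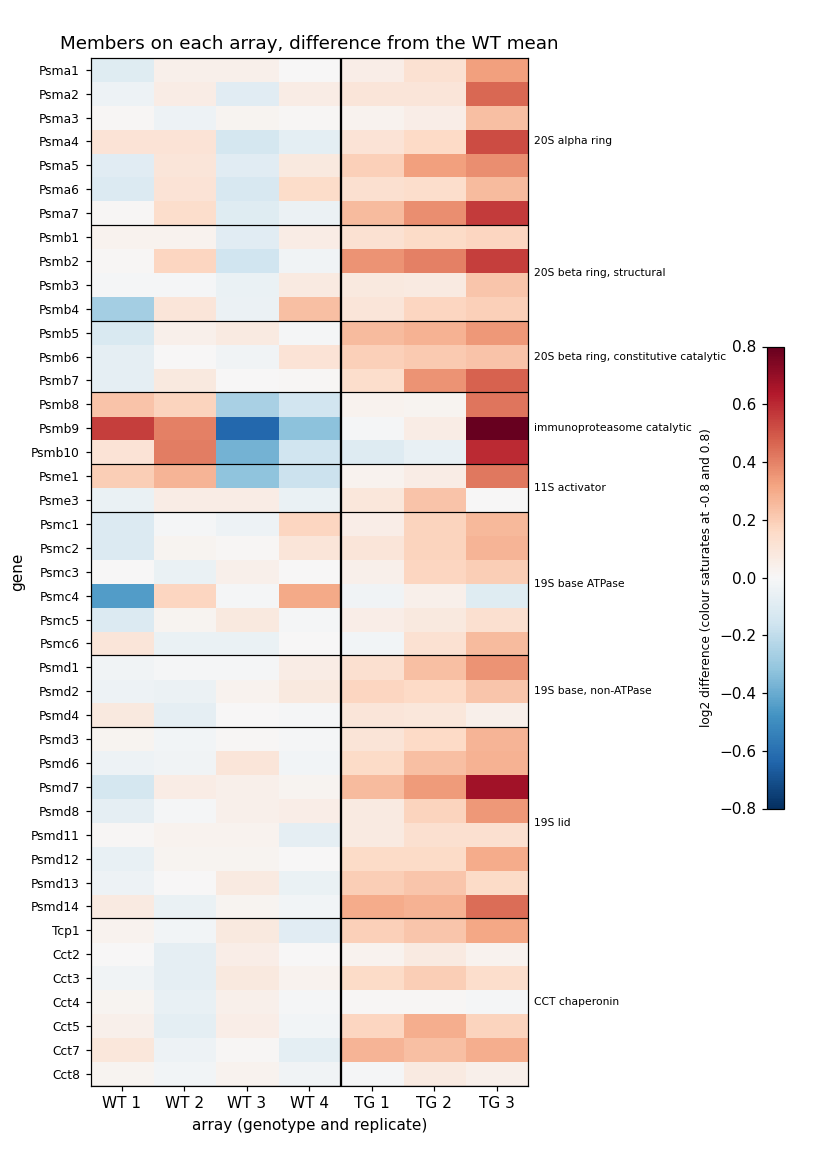
Log2 difference from the WT mean (colour, saturating at -0.8 and 0.8) for the 43 genes (rows, grouped by place in the complex) on the 7 arrays (columns), with WT left of the line and TG right of it. TG replicate 3 is the darkest red column, and Psmb8, Psmb9, Psmb10 and Psme1 show a division among the WT arrays that most other rows lack.

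The members' other probe sets bear on how far a probe set's own behaviour sets its value. Of 43 genes, 25 had more than 1 probe set, and 35 further probe sets were tested. All 20 with a mean above 9 had a positive difference, against 46.5% of all genes with a mean above 9. Of the 15 at or under 9, 6 did, against 50.7% of all genes. Of the 35, 3 passed as higher (Psma5, Psma7 and Psmb4) and 0 as lower. This is near the shares over all genes, 8.11% higher and 2.56% lower. The brightest probe set carried the _x_at mark in 6 genes and the _s_at mark, for probes shared between transcripts, in 1. None of these 7 passed. With the brightest unmarked probe set instead, a choice made after the values were seen, 9 genes passed, the same 8 and Psmb4.

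Related genes outside the list were counted in the same fit. Of 17 assembly factors and regulators of the proteasome tested, 0 passed (6 higher and 1 lower at an unadjusted p under 0.05, where all genes gave 20% and 11%), and their median difference was 0.10. The assembly factor genes Pomp and Psmg1 read 10.78 to 10.95 and 8.46 to 8.93 in WT against 11.08 to 11.44 and 9.08 to 9.60 in TG, with differences of 0.35 and 0.53 (limma adjusted p = 0.0661 and 0.0879). Sem1, a small lid subunit, differed by 0.35 (adjusted p = 0.0715). Nfe2l2, which encodes the stress factor NRF2, had an estimate of -0.39, with every TG array below every WT array (adjusted p = 0.0739). Nfe2l1, whose product NRF1 drives proteasome genes when the proteasome is inhibited, differed by 0.01 (adjusted p = 0.963).

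Of 9 genes for ubiquitin supply and the p97 segregase, Vcp alone passed, where 8.11% of all genes passed as higher. Vcp encodes p97, an ATPase that extracts ubiquitinated proteins for the proteasome. It was at 11.93, 11.93, 11.93 and 11.94 in WT and 12.19, 12.15 and 12.35 in TG (0.30 ± 0.06 SE, limma adjusted p = 0.0287). Its cofactors did not pass: Nploc4 differed by 0.16 (adjusted p = 0.183), Ufd1 by -0.03 (adjusted p = 0.769) and Nsfl1c by 0.02 (adjusted p = 0.805). The median over the 9 genes was -0.03.

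Genes that work with CCT gave 1 call in 14, near the share of 8.11% called higher over all genes. It was the tubulin cofactor gene Tbcd (0.26 ± 0.05 SE, limma adjusted p = 0.0362), and the list median was 0.07. At an unadjusted p under 0.05 there were 4 higher and 2 lower, where all genes gave 20% and 11%. The lower ones were Pdcl, a phosducin-like cofactor gene, and the tubulin cofactor gene Tbca, with differences of -0.17 and -0.21 (adjusted p = 0.0962 and 0.104) and every TG array below every WT array. Cct6a, the remaining CCT subunit, differed by 0.27 ± 0.09 and did not pass (adjusted p = 0.111). Of 9 tubulin and actin genes, which encode clients of CCT, 4 passed as higher and 0 as lower, where all genes gave 8.11% and 2.56%. The list median was 0.19. Actb and Actg1 differed by -0.03 and 0.05 and did not pass. Tubb5, the main beta-tubulin gene of lymphocytes, was at 11.36, 11.48, 11.38 and 11.37 in WT and 11.64, 11.79 and 11.76 in TG (0.33 ± 0.06, adjusted p = 0.0237). Tuba4a rose by 0.64 ± 0.11 (adjusted p = 0.0244). Tubb2a rose from 7.70 to 8.98 in WT to 10.15 to 10.96 in TG (adjusted p = 0.0254). Tubb6 was not above background on any WT array and read 4.24, 5.58 and 5.96 in TG. Tubb6 met the filter on low values through its TG arrays alone. It could therefore not have passed as lower, and its place among the 4 calls carries no weight. The platelet markers were also highest on the TG arrays, and their part in the values of Tubb2a and Tubb6 was not tested.

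A list of HSP70, HSP90 and other heat shock chaperones and their cofactors had 0 of 16 genes passing, with a median of 0.08. At an unadjusted p under 0.05 there were 3 higher (Bag1, Hspa9 and Hspe1) and 0 lower, where all genes gave 20% and 11%. Some genes of the list stood apart on WT replicate 3. Dnaja1, an HSP70 cochaperone, was at 11.53, 11.66, 12.97 and 11.57 on WT replicates 1 to 4 and at 11.92, 11.82 and 11.37 in TG. Hsph1 and Dnajb1 likewise stood highest on WT replicate 3, at 11.89 and 12.06, and Hspa1b was above background on that array alone (5.45).

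The class I antigen processing list had 1 of 12 genes passing, near the share of 8.11% called higher over all genes. It was Irf8 (0.26 ± 0.05 SE, limma adjusted p = 0.0353), a factor of B cell and myeloid development. Tap1, the peptide transporter gene that neighbours Psmb9 and Psmb8 in the RefSeq annotation, read 11.23, 11.08, 10.03 and 10.34 in WT and 10.57, 10.49 and 11.77 in TG (adjusted p = 0.682). Nlrc5, the class I transactivator gene, read 10.33, 10.37, 8.18 and 8.99 in WT and 9.22, 8.96 and 11.49 in TG (adjusted p = 0.744). Irf1 was at 11.72, 11.67, 10.80 and 11.20 in WT and 11.12, 10.91 and 12.23 in TG (adjusted p = 0.913). Irf9 was at 10.84, 10.74, 10.04 and 10.37 in WT and 10.64, 10.47 and 10.97 in TG (adjusted p = 0.562). In each of these 4 genes WT replicates 1 and 2 were above WT replicates 3 and 4, as in Psmb8, Psmb9, Psmb10 and Psme1. TG replicate 3 was the highest array in all of them. TG replicates 1 and 2 did not both lie between the WT pairs in Irf1 and Nlrc5. Irf8 lacked the division, with WT replicate 3 its highest WT array (12.86). All of the 12 estimates were above 0 (against 50.7% of all genes), with a median of 0.26.

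**Figure D4:**
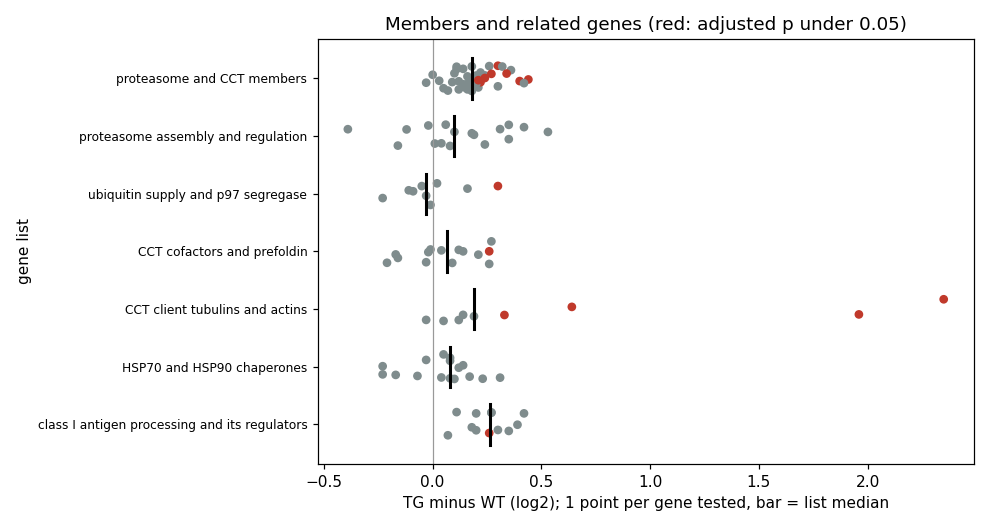
Difference between TG and WT arrays (horizontal axis, log2) for the 43 subunit and chaperonin genes and for 6 lists of related genes (vertical axis); each point is 1 tested gene, red points have an adjusted p under 0.05, and the black bar is the list median. The medians run from -0.03 for ubiquitin supply to 0.26 for class I processing, and the 2 points beyond 1.5 are the tubulin genes Tubb2a and Tubb6.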

How the data were processed

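The authors deposited log2 expression per probe set. The submitters' processing notes name GCRMA without a version, a method that estimates background from probe sequence and normalizes by quantiles before it summarises probes, so small values are compressed towards a floor. The lowest value, 2.17, holds 35.6% to 37.1% of each array. Array number, 4 and 3, limits the precision. Genes were named from the platform annotation. Probe sets above 4 on at least 3 of 7 arrays (20994) were fitted with limma 3.58.1 in R 4.3.3 (lmFit, eBayes with trend), with Benjamini-Hochberg adjustment over all of them. Members, lists and tests were chosen with earlier results of these data known. Values on every array are given for members that passed, for those of lowest and highest p in each place of the complex and for the catalytic pairs. Related genes were named in part by p and in part after their values were seen, so some genes of low p go unnamed. In simulated data for this comparison (17668 probe sets), 38.0% of changes of 0.5 and 71.0% of changes of 1 were called, with 6 false calls. The simulation changed far fewer probe sets than the 1949 called in the data, so these rates need not hold for the data. Replicate numbers gave no sign of pairing: same-numbered arrays correlated at -0.09, -0.14 and -0.26, and differently numbered ones at -0.18 to 0.26. With so few arrays this does not exclude a pairing.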

Additional observations from a re-analysis of the deposited data

Results flagged for a closer look

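In each group of 4 WT arrays, the gap between an end array and its neighbour was compared with the whole range; Dixon's 95% limit for 4 arrays was used, and chance passes it in about 1 of 20 groups. Of 139 genes checked in this way, 9 passed it. Among the subunits and chaperonins, Psmd6 on WT replicate 3 had a gap of 0.878 of the range (11.61 against 11.47 to 11.49). Among related genes, the gap was 0.943 for Hspd1 and 0.910 for Dnaja1 on WT replicate 3, both high there (12.56 and 12.97), and 0.865 for Psmf1, low there. On WT replicate 1 it was 0.954 for Ufd1 and 0.924 for Pfdn2, both high, and 0.933 for Tuba1a, low (11.26 against 11.78 to 11.82). On WT replicate 4 it was 0.876 for Psmd9, high, and 1.0 for Tyms, low by 0.01.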

How the results depend on the processing

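Of the alternatives, several changed the count of 8 genes passing as higher: it was 5 with quantile normalization and with median centring, 4 without the intensity trend, 20 with array weights, and 0 with no filter, with the replicate block, with the Xist covariate, against WT replicates 1 and 2 alone, and without both TG replicate 3 and WT replicate 4. Leaving out single arrays gave 0 to 8. The replicate block leaves out WT replicate 4. The share of all genes called higher moved as well, from 0.0315% with the block to 17.6% with array weights. No gene passed as lower under any of these. None of the 8 genes changed sign. Signs turned for 11 genes that did not pass. With probe sets averaged, Psma1 was -0.14, Psma3 -0.07, Psmd4 -0.04, Psmd11 -0.01 and Psmc4 0.05. With the Xist covariate, against WT replicates 1 and 2, and without both TG replicate 3 and WT replicate 4, the values were -0.05, -0.05 and -0.03 for Psmb8, -0.13, -0.11 and -0.09 for Psmb9, -0.12, -0.11 and -0.13 for Psmb10, -0.07, -0.07 and -0.005 for Psme1, and 0.12, 0.11 and 0.11 for Psmc4. Psmb10 was -0.12 with array weights, Psmc4 0.07 with the block, and Cct2 and Cct4 were -0.001 and -0.04 with quantile normalization. Leaving out single arrays gave ranges of -0.07 to 0.29 for Psmb10, -0.18 to 0.07 for Psmc4, -0.01 to 0.02 for Cct4 and -0.17 to 0.37 for Psmb9 minus Psmb6. The Psmb9 minus Psmb6 contrast was -0.32 without both arrays. The causes were not tested.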
